A study of Mus musculus with 24 samples.

Results

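The genes described here encode the subunits of voltage-gated sodium channels, voltage-gated calcium channels and HCN channels, measured in the hypothalamus of hypertensive and normotensive mice. They were chosen by symbol: the sodium channel genes Scn followed by a number, the calcium channel genes Cacna, Cacnb and Cacng, and the Hcn genes. The deposited table gave 38 such genes among 19937 genes, counting only probe sets that the array annotation assigns to 1 gene symbol and taking, for a gene with several, the one with the highest mean over 24 arrays. The 38 were 8 sodium channel alpha subunits, 3 sodium channel beta subunits, 10 calcium channel alpha-1 subunits, 4 alpha-2-delta subunits, 3 calcium channel beta subunits, 7 gamma subunits and 3 HCN subunits.

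Whole hypothalami came from male BPH/2J mice, an inbred strain selected for high blood pressure, and male BPN/3J mice, its normotensive counterpart, killed when blood pressure peaks within the day. There were 4 groups of 6 mice: BPH/2J at 6 weeks of age, BPN/3J at 6 weeks, BPH/2J at 26 weeks and BPN/3J at 26 weeks. Each mouse gave 1 Affymetrix Mouse Gene 1.0 ST array with no pooling, and values are log2 expression values, so that a difference of 1 is a change of 2-fold. The strains differ across their genomes, and no other line was included, so strain and blood pressure cannot be told apart.

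Voltage-gated sodium channels carry the upstroke of the action potential; the alpha subunit forms the pore, and beta subunits set its gating and anchor it in the membrane. Voltage-gated calcium channels turn electrical activity into calcium entry, which triggers transmitter and hormone release and changes in transcription. Their alpha-1 subunit forms the pore, the beta and alpha-2-delta subunits bring it to the membrane, and most of the brain gamma subunits act chiefly as partners of AMPA-type glutamate receptors. HCN channels open on hyperpolarisation, carry a pacemaker current and help set the firing rhythm of neurons, among them relay neurons of the thalamus.

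Promoter windows of 4 genes are shown as landmarks, those of Scn9a and Cacna2d1, which were higher in 6-week BPH/2J mice, and of Scn4b and Hcn2, which were lower. They are the genes with a single RefSeq window and the smallest p in each direction. Each runs from 250 bases before to 50 bases after the annotated start, 5′ to 3′ on the gene's strand, from RefSeq on assembly GRCm38.p6. The windows are chr2:66634913-66635212 on the minus strand for Scn9a, chr5:15934441-15934740 on the plus strand for Cacna2d1, chr9:45138374-45138673 on the plus strand for Scn4b and chr10:79716384-79716683 on the plus strand for Hcn2. Capitals mark matches to the GC box GGGCGG or its reverse complement CCGCCC, and the rest is in lower case.
Scn9a: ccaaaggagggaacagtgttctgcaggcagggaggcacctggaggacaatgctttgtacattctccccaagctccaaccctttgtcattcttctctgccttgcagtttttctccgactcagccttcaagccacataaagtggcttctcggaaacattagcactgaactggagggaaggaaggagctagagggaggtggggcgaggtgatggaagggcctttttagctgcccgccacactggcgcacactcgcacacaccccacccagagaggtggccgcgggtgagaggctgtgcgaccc
Cacna2d1: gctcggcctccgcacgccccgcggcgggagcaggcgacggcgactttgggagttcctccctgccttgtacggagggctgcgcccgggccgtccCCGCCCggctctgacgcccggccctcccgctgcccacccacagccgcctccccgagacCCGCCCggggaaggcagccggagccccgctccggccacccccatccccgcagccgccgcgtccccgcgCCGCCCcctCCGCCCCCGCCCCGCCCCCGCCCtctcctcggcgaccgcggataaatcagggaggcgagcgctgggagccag
Scn4b: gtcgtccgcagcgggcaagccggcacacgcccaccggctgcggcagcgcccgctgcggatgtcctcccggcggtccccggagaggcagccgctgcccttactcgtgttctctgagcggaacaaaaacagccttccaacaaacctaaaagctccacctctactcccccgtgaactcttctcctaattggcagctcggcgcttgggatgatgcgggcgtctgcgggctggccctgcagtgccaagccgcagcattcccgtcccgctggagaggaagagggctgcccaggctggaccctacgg
Hcn2: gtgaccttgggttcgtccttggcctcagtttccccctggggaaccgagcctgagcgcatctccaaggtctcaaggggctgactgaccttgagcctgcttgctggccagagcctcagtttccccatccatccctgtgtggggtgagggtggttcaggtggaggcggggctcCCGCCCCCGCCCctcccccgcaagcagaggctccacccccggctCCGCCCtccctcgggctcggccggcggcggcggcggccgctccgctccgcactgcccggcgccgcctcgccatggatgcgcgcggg
The share of G and C was 57.3% in the Scn9a window, 80.0% in the Cacna2d1 window, 66.3% in the Scn4b window and 72.3% in the Hcn2 window. The Cacna2d1 window held 7 GC boxes and the Hcn2 window 3, while these letters are not in the Scn9a and Scn4b windows. RefSeq windows were matched for 29 of the 38 genes, 39 windows in all, and 16 of them (41.0%) held a GC box on either strand, against 35.7% of all 32851 windows. Motifs were searched on both strands. The TATA box TATAAA was in 2 of the 39 (5.13%) against 13.6% of all windows. The E-box CACGTG and the cyclic AMP response element TGACGTCA were in 0 of the 39, against 7.15% and 1.79% of all windows. Median G and C content was 57.3% over 5 windows of genes higher in 6-week BPH/2J mice, 64.2% over 14 windows of genes lower there and 56.5% over 20 windows of the others, with 52.7% over all windows.

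In hypothalami of 6-week mice many of these channel genes differed between the strains, in both directions. BPH/2J mice had more transcript of the sodium channel pore genes Scn9a, Scn7a and Scn3a, of the R-type calcium channel gene Cacna1e and of the alpha-2-delta genes Cacna2d1 and Cacna2d2. They had less of the beta subunit gene Scn4b, the T-type calcium channel gene Cacna1g, the pacemaker genes Hcn2 and Hcn4, the pore genes Scn1a, Scn8a and Cacna1c, and of Cacnb4, Cacng2, Cacng7 and Cacna2d4. By limma's moderated test, with Benjamini-Hochberg adjustment over all 19937 genes and a threshold of 0.05, 17 of the 38 passed, against 7.42% of all genes. Of these, 6 were higher in BPH/2J mice, against 2.99% of all genes, and 11 were lower, against 4.42%. The median size of the strain difference, whatever its sign, was 0.22 log2 units over the 38 genes and 0.08 over all genes, and the median signed differences were -0.04 and 0.01.

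**Figure D1:**
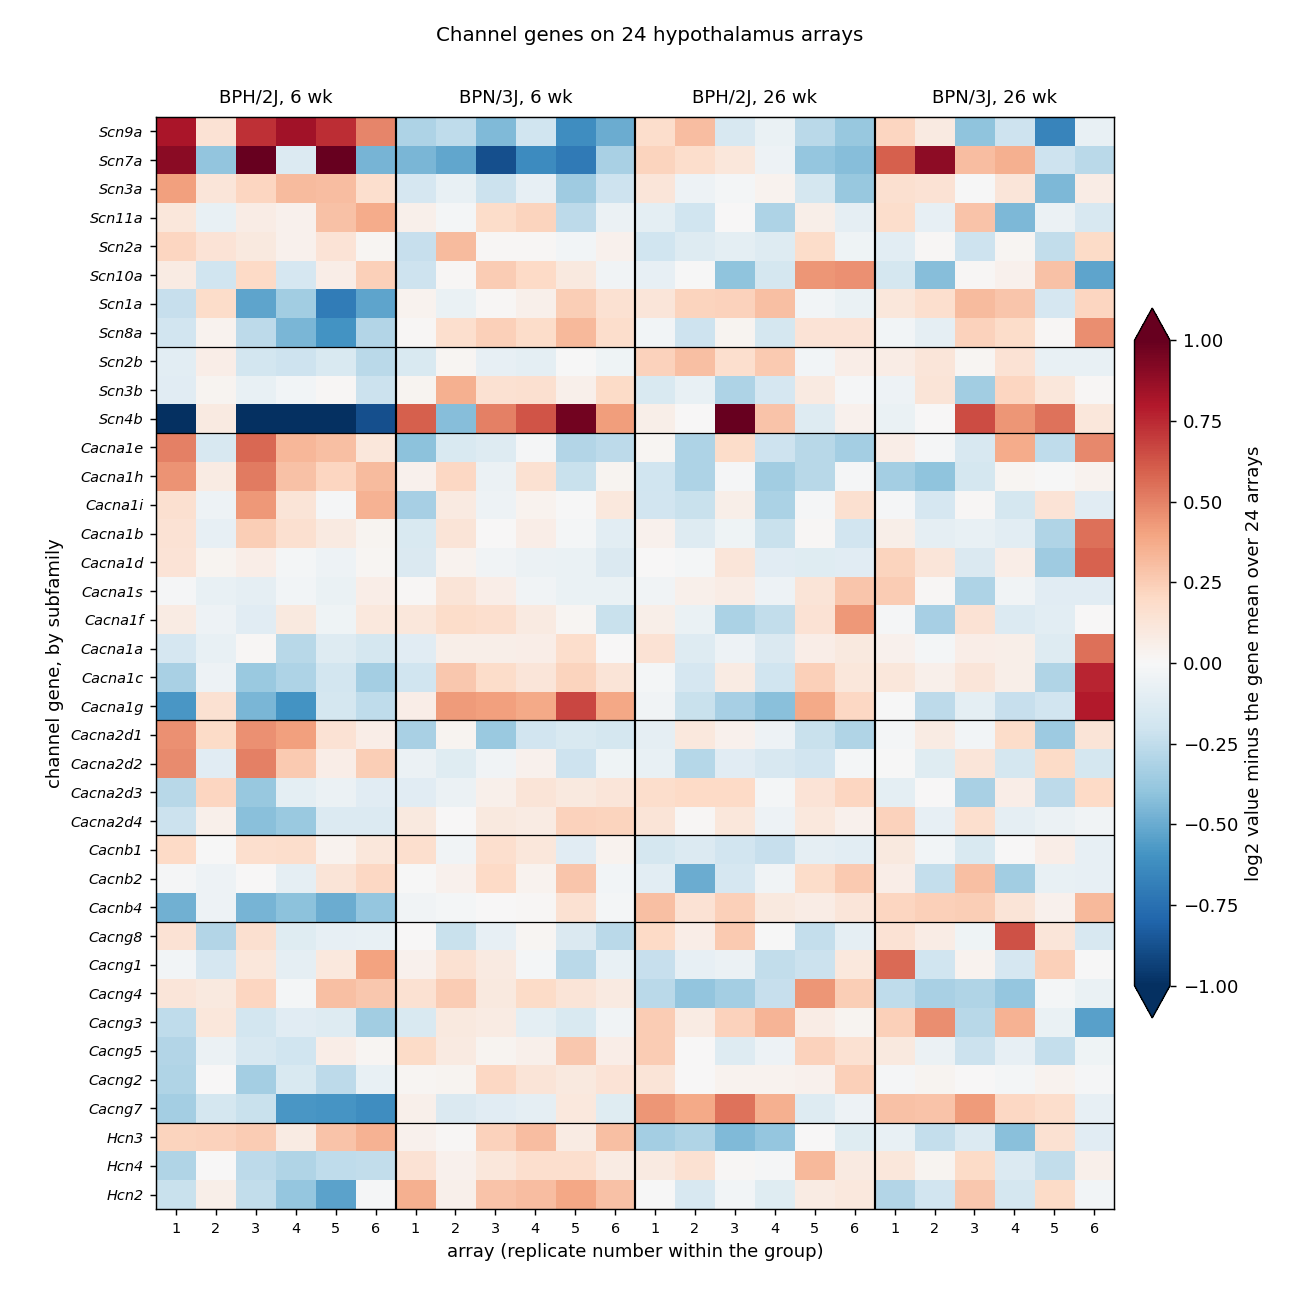
Each row is 1 of the 38 channel genes, grouped by subfamily, and each column 1 of the 24 arrays in the 4 groups; colour is the log2 value minus that gene's mean over all arrays. Blocks of colour that set 6-week BPH/2J arrays apart, such as low Scn4b and high Scn9a, are weaker on the array of BPH/2J replicate 2; the colours end at 1 log2 unit on either side.

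Among the arrays of 6-week BPH/2J mice, replicate 2 stood apart from the other 5. For 15 of the 17 genes that passed, it was the BPH/2J array nearest the BPN/3J mean, and for 10 of the 17 it lay inside the BPN/3J range. Markers of the thalamus, the structure next to the hypothalamus, followed the same pattern, and some of the other marker lists below did too. Over 16 thalamus marker genes the mean level was 9.07 on BPH/2J replicate 2, between 7.22 and 8.39 on the other 5 BPH/2J arrays, and between 9.00 and 9.37 on the 6 BPN/3J arrays. All 16 thalamus markers were lower in 6-week BPH/2J mice by limma, with a median difference of -1.05. The marker lists were chosen with earlier results of these data known. Their shared direction may follow from that choice and is no independent support. Of 14 measured markers of the hypothalamus itself, 8 were higher in BPH/2J mice and 0 lower, with list means from 7.58 to 8.46 in BPH/2J and from 7.02 to 7.78 in BPN/3J mice. No marker on either list lay at the background level on every array of a group. Myelin markers were lower for 4 of 9, general neuron markers for 4 of 8 and cortex and striatum markers for 1 of 8, while 0 of 10 choroid plexus markers and 0 of 8 pituitary markers passed. The part of these hypothalamus, myelin and neuron markers in the channel gene results was not tested. In bulk tissue, fewer cells of a type and less RNA per cell cannot be told apart, and this holds for every gene here.

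Each gene that passed at 6 weeks is therefore given with and without that array. It was singled out for lying near BPN/3J, so larger differences and less overlap without it follow from that choice. Without BPH/2J replicate 2, 18 of the 38 genes passed, against 9.84% of all genes; Cacna1h, with 0.33 ± 0.09 (SE) and an adjusted p of 0.0229, was the added one. The ranges of the strains did not overlap for 8 of the 38 genes with all arrays, against 5.44% of all genes, and for 17 of 38 without replicate 2, against 11.7% of all genes. When the mean of the thalamus markers on each array was added to the limma model as a covariate, 1 of the 38 genes passed, against 0.858% of all genes. That gene was Scn9a, at 0.87 ± 0.21 (SE, adjusted p = 0.0359). With both changes made together, 3 passed, against 1.07% of all genes: Scn9a, higher in BPH/2J mice, and Scn4b and Hcn2, lower. The thalamus mean itself differed between the strains at 6 weeks, so this fit removes strain differences that move with it, and its part in the results cannot be told apart from the strain.

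**Figure D2:**
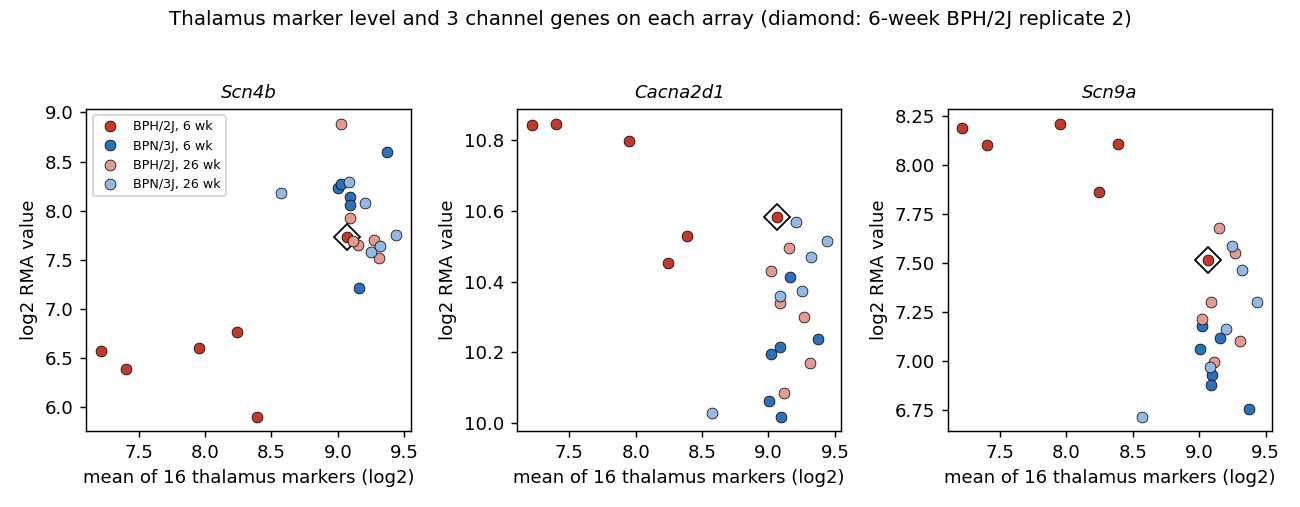
Log2 level of Scn4b, Cacna2d1 and Scn9a (vertical axes) against the mean log2 level of 16 thalamus markers (horizontal axes), 1 point per array, coloured by group. The 6-week BPH/2J arrays run from 7.22 to 9.07 on the horizontal axis, and the 6-week BPN/3J arrays from 9.00 to 9.37.

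Among the sodium channel alpha subunits, 3 of 8 were higher and 2 lower in 6-week BPH/2J mice. Scn9a encodes a channel best known from sensory neurons of the pain pathway, where it amplifies small depolarisations. Its lowest, median and highest log2 values over 6 arrays were 7.51, 8.10 and 8.21 in BPH/2J mice and 6.75, 6.99 and 7.17 in BPN/3J mice. Every BPH/2J array lay above every BPN/3J array, with replicate 2 the lowest of the BPH/2J arrays. The difference was 1.01 ± 0.14 (SE, n = 6 mice a group, limma adjusted p = 2.09e-05), a fold of 2.02, and it was 1.11 ± 0.13 without replicate 2. A second probe set of Scn9a gave 0.79.

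Scn3a encodes an alpha subunit that is most abundant before and around birth. Its lowest, median and highest values were 8.43, 8.57 and 8.71 in 6-week BPH/2J mice and 7.95, 8.12 and 8.23 in BPN/3J mice, again without overlap. The difference was 0.44 ± 0.09 (limma adjusted p = 0.00278), and 0.47 ± 0.10 without replicate 2. Scn7a encodes Nax, an alpha subunit relative that senses extracellular sodium in glia of the circumventricular organs. It measured 6.37, 7.22 and 8.04 in BPH/2J mice and 5.96, 6.27 and 6.51 in BPN/3J mice. The BPH/2J arrays fell apart into a higher and a lower part: replicates 1, 3 and 5 read 7.74, 7.92 and 8.04, and replicates 2, 4 and 6 read 6.45, 6.70 and 6.37. The Scn7a difference was 0.95 ± 0.25 (limma adjusted p = 0.0171), and without any 1 of replicates 1, 3 and 5 of BPH/2J it no longer passed, with an adjusted p of at most 0.0614. Without replicate 2 it was 1.10 ± 0.25.

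Scn1a, whose channel drives firing of inhibitory interneurons and whose loss causes Dravet syndrome in people, was lower in 6-week BPH/2J mice. It measured 9.28, 9.54 and 10.16 there and 9.91, 10.02 and 10.22 in BPN/3J mice. Replicate 2 was the highest BPH/2J array and the single one within the BPN/3J range. The difference was -0.43 ± 0.11 (limma adjusted p = 0.0143; 0.0511 without BPH/2J replicate 5), and -0.54 ± 0.09 without replicate 2. Scn8a, the main sodium channel of axon initial segments and nodes of Ranvier in the adult, measured 8.80, 9.12 and 9.43 in BPH/2J mice and 9.41, 9.57 and 9.72 in BPN/3J mice, a difference of -0.48 ± 0.10 (limma adjusted p = 0.00221). Here too replicate 2 alone overlapped, and without it the difference was -0.54 ± 0.09. Scn2a, a main alpha subunit of excitatory neurons, differed by 0.09 and did not pass, and over its 14 single-symbol probe sets the strain differences ran from -0.10 to 0.18. Scn10a and Scn11a, channels of peripheral sensory neurons, were at or below the median of unnamed probe sets on all 6 arrays of both 6-week groups, so that no level can be given for them.

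The genes for 5 of these alpha subunits lie side by side on mouse chromosome 2 in the order Scn3a, Scn2a, Scn1a, Scn9a and Scn7a in the GRCm38.p6 annotation. Between Scn2a and Scn1a stand 3 other protein-coding genes, and the other neighbours have 0 between them. Along this order the 6-week strain differences were 0.44, 0.09, -0.43, 1.01 and 0.95, so that Scn1a, which was lower in BPH/2J mice, stands between genes that were not. These paralogs share sequence, and probe sets that the annotation assigns to several of them were left out of the count. Such a probe set for Scn2a, Scn9a and Scn3a differed by 0.95 ± 0.16, one for Scn3a and Scn1a by 0.34 ± 0.09 and one for Scn9a and Scn3a by 0.05 ± 0.07. How far the paralogs share probes was not tested, and values of single members are uncertain to that extent.

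The sodium channel beta subunit Scn4b, which helps generate the resurgent sodium current of fast-firing neurons, had the largest 6-week strain difference of the 38 genes. It measured 5.90, 6.59 and 7.73 in BPH/2J mice and 7.21, 8.19 and 8.60 in BPN/3J mice. The highest BPH/2J value was that of replicate 2, and the other 5 BPH/2J arrays, from 5.90 to 6.76, all lay below the BPN/3J range. Its difference was -1.43 ± 0.25 (SE, n = 6, limma adjusted p = 0.000484), which is 2.69-fold lower in BPH/2J mice, and -1.64 ± 0.23 without replicate 2. The neighbouring gene on chromosome 9 is Scn2b, another beta subunit linked to the pore by a disulphide bond, and it differed by -0.08 without passing. Scn3b, a beta subunit that is not disulphide-linked, lay below the BPN/3J range on all 6 BPH/2J arrays, yet its difference of -0.22 ± 0.08 did not pass (limma adjusted p = 0.122).

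**Figure D3:**
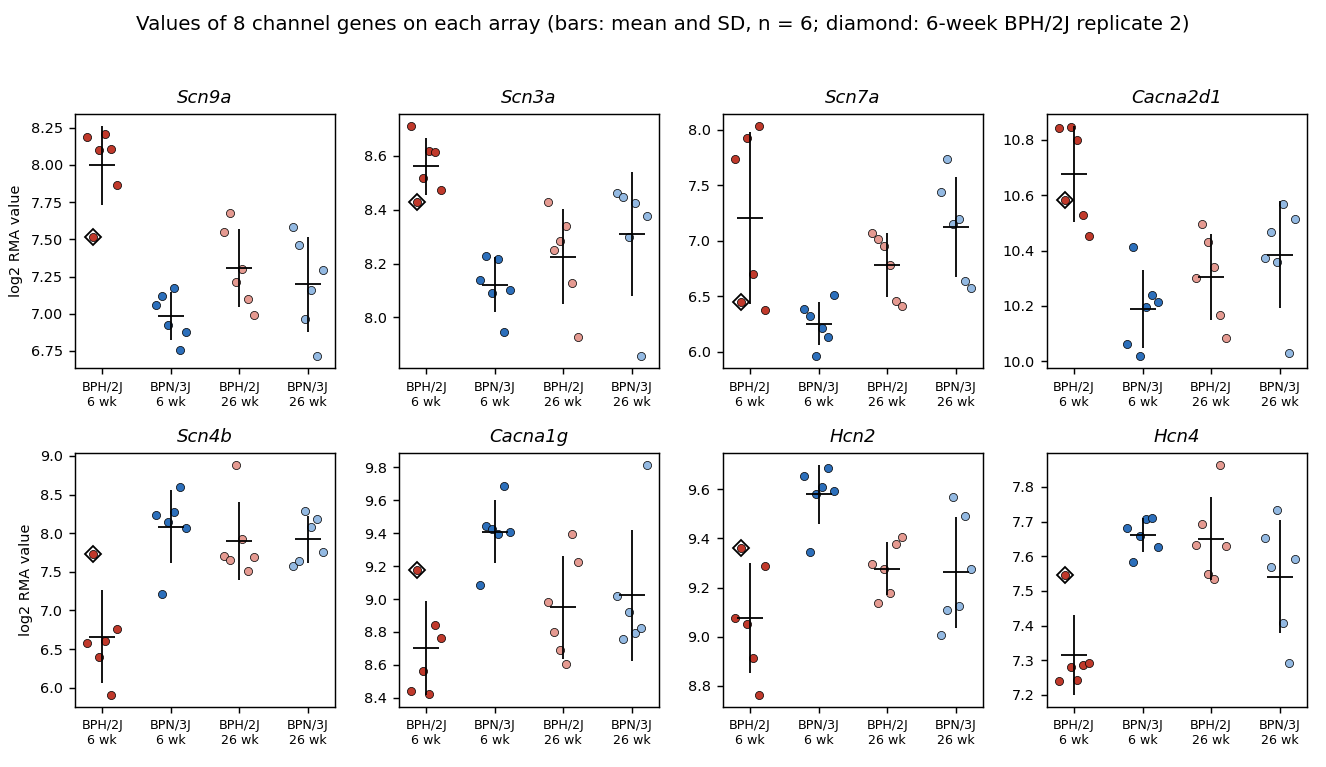
Log2 values of 8 channel genes on every array in the 4 groups, with mean and SD; the diamond is 6-week BPH/2J replicate 2. Scn9a and Scn3a show no overlap between strains at 6 weeks, Scn4b, Cacna1g and Hcn2 overlap through that array, and the strains overlap at 26 weeks in all 8 panels.

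Of the 10 calcium channel alpha-1 subunits, 1 was higher and 2 were lower in 6-week BPH/2J mice. Cacna1e, the R-type channel of dendrites and nerve terminals, measured 8.37, 8.85 and 9.11 in BPH/2J mice and 8.13, 8.33 and 8.52 in BPN/3J mice. Replicate 2 was the single BPH/2J array within the BPN/3J range. The difference was 0.49 ± 0.13 (limma adjusted p = 0.0161; 0.0557 without BPH/2J replicate 3), and 0.57 ± 0.12 without replicate 2. Cacna1g, the T-type channel behind burst firing of thalamic relay neurons, measured 8.43, 8.67 and 9.18 in BPH/2J mice and 9.09, 9.42 and 9.69 in BPN/3J mice. Its difference was -0.71 ± 0.16 (limma adjusted p = 0.00606), or 1.63-fold lower, with replicate 2 again the single overlapping array and -0.80 ± 0.16 without it.

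The other T-type genes did not follow Cacna1g: Cacna1h differed by 0.29 ± 0.09 (limma adjusted p = 0.0586) and Cacna1i by 0.20 ± 0.09 (0.269), both without passing. Cacna1c, an L-type channel of neurons, heart and vessels, measured 7.89, 7.95 and 8.21 in BPH/2J mice and 8.06, 8.42 and 8.53 in BPN/3J mice. The groups overlapped through 2 BPH/2J arrays and through replicate 1 of BPN/3J, which lay far below the rest of its group. Its difference of -0.38 ± 0.12 passed narrowly (limma adjusted p = 0.0466) and no longer passed in 16 of 24 fits that each left out 1 array, with an adjusted p of up to 0.108. Without replicate 2 it was -0.43 ± 0.12 (limma adjusted p = 0.0267). Cacna1a, the P/Q-type channel of most central synapses, differed by -0.18 without passing. Cacna1f, a channel of the retina, was at the background level in both 6-week groups.

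Among the alpha-2-delta subunits, Cacna2d1 and Cacna2d2, both binding partners of gabapentin, were higher and Cacna2d4 lower in 6-week BPH/2J mice. Cacna2d1 measured 10.45, 10.69 and 10.85 in BPH/2J mice and 10.02, 10.21 and 10.41 in BPN/3J mice. All 6 BPH/2J arrays lay above the BPN/3J arrays, and replicate 2, at 10.58, lay inside the range of the other 5. Its difference was 0.49 ± 0.09 (limma adjusted p = 0.00136). Without replicate 2 the difference was 0.50 ± 0.10, and a second probe set gave 0.40 with all arrays. Cacna2d2 measured 8.78, 9.15 and 9.40 in BPH/2J mice and 8.68, 8.84 and 8.93 in BPN/3J mice, and replicate 2 was the lowest BPH/2J array and the single one within the BPN/3J range. That difference of 0.31 ± 0.09 (limma adjusted p = 0.0298) was lost in 6 of 24 fits without 1 array, and with the thalamus covariate it turned to -0.07. Without replicate 2 it was 0.38 ± 0.08.

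Cacna2d4, best known from photoreceptors, measured 6.38, 6.63 and 6.85 in BPH/2J mice and 6.81, 6.90 and 7.03 in BPN/3J mice, a difference of -0.33 ± 0.07 (limma adjusted p = 0.00582). Replicate 2 was its single overlapping array, and the difference was -0.38 ± 0.07 without it. On chromosome 6 it has 1 protein-coding gene between itself and Cacna1c, which was also lower. Cacnb4, the calcium channel beta subunit whose loss underlies the epileptic lethargic mouse, measured 9.30, 9.36 and 9.75 in BPH/2J mice and 9.77, 9.79 and 9.95 in BPN/3J mice. The strains did not overlap, although replicate 2, at 9.75, stood far above the other 5 BPH/2J arrays, which ended at 9.41. Cacnb4 differed by -0.40 ± 0.07 (limma adjusted p = 0.000493), and by -0.46 ± 0.06 without replicate 2. Neither Cacnb1 nor Cacnb2, the other beta subunits, passed.

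Among the 7 gamma subunits, 2 were lower in 6-week BPH/2J mice and 0 higher. Cacng2, or stargazin, carries AMPA receptors to synapses. It measured 9.15, 9.29 and 9.50 in BPH/2J mice and 9.52, 9.61 and 9.70 in BPN/3J mice, without overlap, a difference of -0.29 ± 0.06 (limma adjusted p = 0.00253) that a second probe set gave as -0.24. Without replicate 2 it was -0.33 ± 0.06. Cacng7, another AMPA receptor partner, measured 8.92, 9.08 and 9.37 in BPH/2J mice and 9.40, 9.44 and 9.65 in BPN/3J mice, also without overlap. The Cacng7 difference of -0.37 ± 0.11 (limma adjusted p = 0.0348) was lost in 8 of 24 fits without 1 array, and was -0.42 ± 0.11 without replicate 2. Cacng8, its neighbour on chromosome 7, differed by 0.07 and did not pass.

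Both HCN genes with a known role in thalamic relay neurons were lower in 6-week BPH/2J mice, while Hcn3, a slowly opening HCN subunit found in the hypothalamus, differed by 0.07 without passing. Hcn2 measured 8.76, 9.06 and 9.36 in BPH/2J mice and 9.35, 9.60 and 9.69 in BPN/3J mice. The overlap came from replicate 2 of BPH/2J and from replicate 2 of BPN/3J, which was the low array of its group. Its difference was -0.50 ± 0.10 (limma adjusted p = 0.00162), and -0.56 ± 0.10 without replicate 2 of BPH/2J. Hcn4, the main pacemaker subunit of the heart, measured 7.24, 7.28 and 7.54 in BPH/2J mice and 7.58, 7.67 and 7.71 in BPN/3J mice. No arrays overlapped, replicate 2 was the highest BPH/2J array by a wide gap, and the difference was -0.35 ± 0.07 (limma adjusted p = 0.00266), or -0.39 ± 0.07 without replicate 2.

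The 21 channel genes that did not pass at 6 weeks had differences from -0.22 for Cacng5 to 0.29 for Cacna1h. Beside those already described they were Cacna1b, the N-type channel of nerve terminals, Cacna1d, a second neuronal L-type channel, Cacna1s, the channel of skeletal muscle, the alpha-2-delta gene Cacna2d3, at -0.16 ± 0.09 (limma adjusted p = 0.395), and Cacng1, Cacng3, Cacng4 and Cacng5. Cacna1b measured 8.93, 9.13 and 9.26 in BPH/2J mice and 8.86, 9.00 and 9.14 in BPN/3J mice, and Cacna1d 7.07, 7.14 and 7.26 in BPH/2J mice and 6.98, 7.06 and 7.16 in BPN/3J mice. Both overlapped widely between the strains. Cacng5 had an adjusted p of 0.0907 by limma.

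A list of channel partners held proteins that bind these channels, with the sodium leak channel, its subunits and the epithelial sodium channel subunits added. Of its 29 measured genes, 0 were higher (2.99% of all genes were) and 3 lower (4.42%) in 6-week BPH/2J mice. The one with the largest difference was Pex5l, which encodes TRIP8b, the auxiliary subunit that sets the number of HCN channels at the membrane. It averaged 8.91 ± 0.28 in BPH/2J mice and 9.66 ± 0.18 in BPN/3J mice (SD, n = 6), a difference of -0.74 ± 0.12 (SE, limma adjusted p = 0.000179). Stac2, an adaptor of L-type calcium channels, differed by -0.49 ± 0.12 (limma adjusted p = 0.0106), and Rims1, a scaffold that ties calcium channels to release sites, by -0.25 ± 0.07 (0.0341). Of 92 potassium channel genes, 4 were higher and 12 lower in 6-week BPH/2J mice, beside the same 2.99% and 4.42% of all genes.

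At 26 weeks no difference between the strains passed for any of the 38 channel genes. By limma 0 of 38 passed, against 2.67% of all genes, and the smallest adjusted p was 0.272. At an unadjusted p of 0.05 there were 3, against 12.5% of all genes: Cacna2d3 at 0.22 ± 0.09, Cacnb1 at -0.14 ± 0.06 and Cacng5 at 0.17 ± 0.08. With the replicate number as a block within the 26-week groups 0 of 38 passed too, against 4.81% of all genes. The groups overlapped for all 38 genes, whereas 1.75% of all genes did not overlap. Strain differences ran from -0.34 for Scn7a to 0.22 for Cacna2d3, with a median size of 0.10 against 0.07 over all genes.

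Scn4b and Scn9a, with the largest strain differences at 6 weeks, were close between the strains at 26 weeks. Scn4b measured 7.51, 7.69 and 8.89 in 26-week BPH/2J mice and 7.58, 7.92 and 8.29 in 26-week BPN/3J mice, a difference of -0.03. The highest BPH/2J value was that of replicate 3, and the other arrays of that group ended at 7.93. That array raised the BPH/2J mean to 7.89, against 7.92 in BPN/3J mice, so the medians lay further apart than the means. Scn9a measured 6.99, 7.26 and 7.68 in BPH/2J mice and 6.71, 7.23 and 7.58 in BPN/3J mice, a difference of 0.11; its second probe set gave -0.31. Both genes overlapped between the strains. Scn7a, next in size at 6 weeks, measured 6.41, 6.87 and 7.07 in 26-week BPH/2J mice and 6.57, 7.17 and 7.74 in 26-week BPN/3J mice, a difference of -0.34 ± 0.25 that did not pass (limma adjusted p = 0.653). Thalamus marker means lay between 9.02 and 9.31 on the 26-week BPH/2J arrays and between 8.57 and 9.44 on the 26-week BPN/3J arrays. Of the 16 markers 1 passed, Tnnt1, lower in BPH/2J mice at -0.97 ± 0.14 (SE, limma adjusted p = 5.2e-05).

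**Figure D4:**
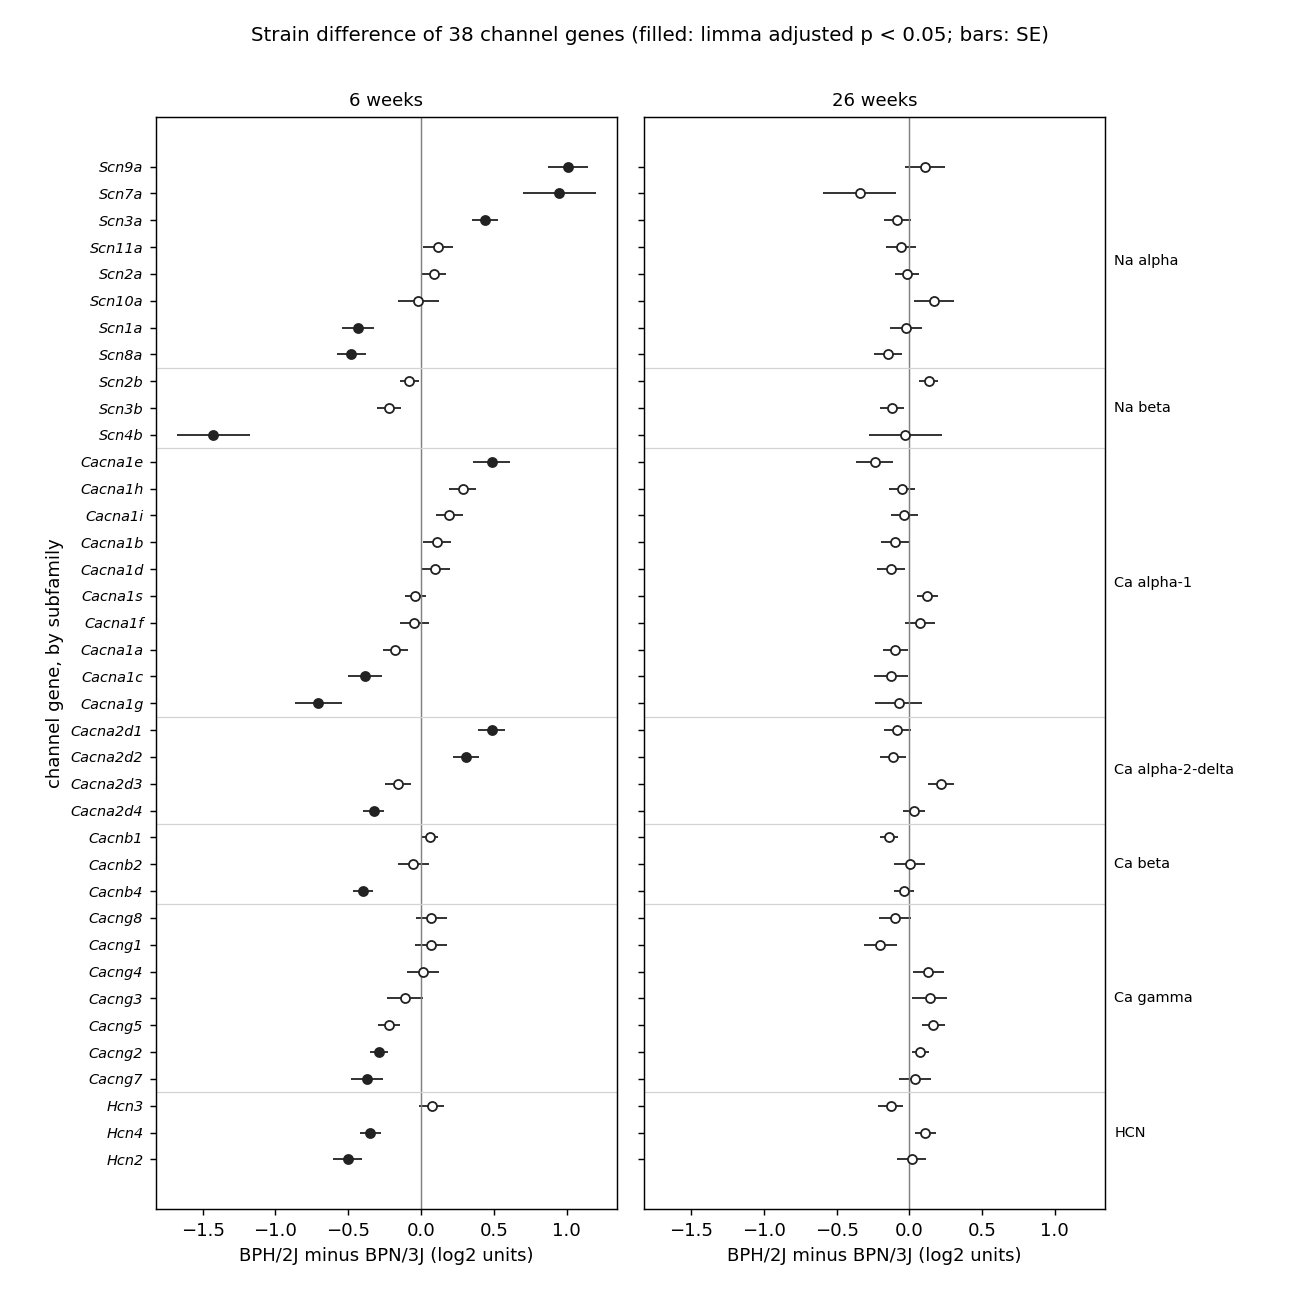
BPH/2J minus BPN/3J difference in log2 units for each channel gene, by subfamily, at 6 and at 26 weeks; bars are SE and filled points have a limma adjusted p below 0.05. At 6 weeks 17 points are filled and at 26 weeks 0.

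Whether the strain difference itself changed with age was tested as an interaction, the 26-week minus the 6-week strain difference. With all arrays 0 of the 38 genes passed by limma, against 0.0301% of all genes, while 21 of the 38 had an unadjusted p below 0.05, against 10.8% of all genes. Scn9a at -0.90 ± 0.20 and Hcn4 at 0.46 ± 0.10 had the smallest adjusted p, 0.0686 for both; Scn4b stood at 1.40 ± 0.35 (0.0845) and Scn7a at -1.29 ± 0.35 (0.110). This count moved with the arrays and the model. Replicate 2 of 6-week BPH/2J lay nearest BPN/3J for most genes that passed at 6 weeks. Leaving it out widens the 6-week strain difference of those genes, so a higher count follows from that choice. Without 6-week BPH/2J replicate 2, 14 of the 38 passed, against 2.49% of all genes, among them Scn9a, with a limma adjusted p of 0.00326, and Scn4b at 1.61 ± 0.31 (0.00455). Leaving out replicate 5 of 26-week BPN/3J gave 3, against 0.155% of all genes. Deviations of same-numbered arrays correlated between the strains at 26 weeks, although no label pairs them. With their number as a block within those groups 4 genes passed, against 0.697% of all genes. They were Scn9a, Scn3a and Cacna2d1, whose strain difference was lower at 26 weeks, and Hcn4, whose difference was higher there.

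With age, BPH/2J mice changed in members of every subfamily. Sodium channel beta genes Scn4b and Scn2b, the gamma genes Cacng7 and Cacng2, the alpha-2-delta genes Cacna2d3 and Cacna2d4, and Cacnb4, Scn1a and Hcn4 were higher at 26 than at 6 weeks, and Scn9a, Scn3a, Cacna1e, Cacna1h, Cacna2d1, Cacna2d2, Cacnb1 and Hcn3 were lower. By limma 17 of the 38 passed, against 16.9% of all genes; 9 were higher, against 8.23% of all genes, and 8 lower, against 8.64%. The ranges of the ages did not overlap for 7 of the 38, against 4.05% of all genes. This comparison shares the 6-week BPH/2J arrays, replicate 2 included, with the strain comparison at 6 weeks, so the comparisons are not independent. Thalamus markers were higher at 26 weeks for 15 of 16 and hypothalamus markers lower for 6 of 14, and with the thalamus mean as a covariate 0 of the 38 genes passed, against 0.0401% of all genes.

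The smallest adjusted p in this comparison belonged to Cacnb4, Cacng7 and Hcn3. Cacnb4 measured 9.88, 9.93 and 10.10 in 26-week BPH/2J mice and 9.30, 9.36 and 9.75 in 6-week BPH/2J mice, without overlap, a difference of 0.54 ± 0.07 (limma adjusted p = 5.4e-05). Cacng7 measured 9.42, 9.91 and 10.09 at 26 weeks and 8.92, 9.08 and 9.37 at 6 weeks, a difference of 0.68 ± 0.11 (limma adjusted p = 0.000283). Its lowest 26-week arrays were replicates 5 and 6, at 9.42 and 9.49, and the other 4 lay at 9.90 or above. Hcn3 measured 6.84, 6.96 and 7.28 at 26 weeks and 7.36, 7.52 and 7.62 at 6 weeks, a difference of -0.50 ± 0.09 (limma adjusted p = 0.000513).

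In BPH/2J mice Scn4b was higher at 26 than at 6 weeks by 1.23 ± 0.25 (limma adjusted p = 0.00176), and Scn2b, at 10.83, 11.06 and 11.16 at 26 weeks and 10.59, 10.69 and 10.92 at 6 weeks, by 0.31 ± 0.07 (0.00245). Scn9a stood at -0.69 ± 0.14 (limma adjusted p = 0.00163). The T-type gene Cacna1h measured 6.38, 6.48 and 6.71 at 26 weeks and 6.81, 7.03 and 7.24 at 6 weeks, with no overlap and a difference of -0.51 ± 0.09 (limma adjusted p = 0.000789). Cacnb1, a beta subunit also used in skeletal muscle, showed no overlap either, at 7.97, 8.04 and 8.11 at 26 weeks and 8.20, 8.34 and 8.40 at 6 weeks, a difference of -0.27 ± 0.06 (limma adjusted p = 0.00347). Cacna2d3, the remaining alpha-2-delta gene, passed at 0.27 ± 0.09 (limma adjusted p = 0.0403) but not in 9 of 24 fits without 1 array.

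In BPN/3J mice the channel genes passed with age at a rate near that of all genes. Whether the strains differ in their change with age is the interaction above, where 0 of the 38 passed with all arrays (0.0301% of all genes). By limma 4 of the 38 passed, 1 higher and 3 lower at 26 weeks, against 12.3% of all genes, of which 4.60% were higher and 7.66% lower. The ages did not overlap for 2 of the 38, against 4.57% of all genes. Scn7a, the sodium sensor, measured 6.57, 7.17 and 7.74 at 26 weeks and 5.96, 6.27 and 6.51 at 6 weeks, without overlap. Its difference was 0.87 ± 0.25 (limma adjusted p = 0.0267), with replicates 5 and 6 the lowest at 26 weeks.

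Hcn3 measured 6.86, 7.16 and 7.43 in 26-week BPN/3J mice and 7.29, 7.43 and 7.59 in 6-week BPN/3J mice, a difference of -0.30 ± 0.09 (limma adjusted p = 0.0270). Among the 38 genes it was the one that passed as lower at 26 weeks in both strains, with an interaction of -0.20 ± 0.12 that did not pass. Cacng4, an AMPA receptor partner, measured 8.33, 8.44 and 8.70 at 26 weeks and 8.80, 8.86 and 8.97 at 6 weeks, without overlap, and differed by -0.38 ± 0.11 (limma adjusted p = 0.0284). Hcn2 measured 9.00, 9.20 and 9.57 at 26 weeks and 9.35, 9.60 and 9.69 at 6 weeks, a difference of -0.32 ± 0.10 (limma adjusted p = 0.0376). Each of the 4 was lost in 4 to 8 of the 24 fits without 1 array, with adjusted p of up to 0.0986. The count moved with single arrays, and the share of all genes moved with it. It was 0 without replicate 2 (5.77% of all genes) or replicate 4 (5.19%) of 26-week BPN/3J mice, and 1 without replicate 1 (6.93%). Without replicate 5 it was 9 (21.2% of all genes) and without replicate 6 it was 6 (16.9%). Among 6-week BPN/3J mice it was 1 without replicate 3 (7.63%) or 4 (7.75%), and 2 without replicate 1 (6.52%) or 6 (9.20%). Thalamus markers passed for 0 of 16 in this comparison, and myelin markers were lower at 26 weeks for 5 of 9.

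**Figure D5:**
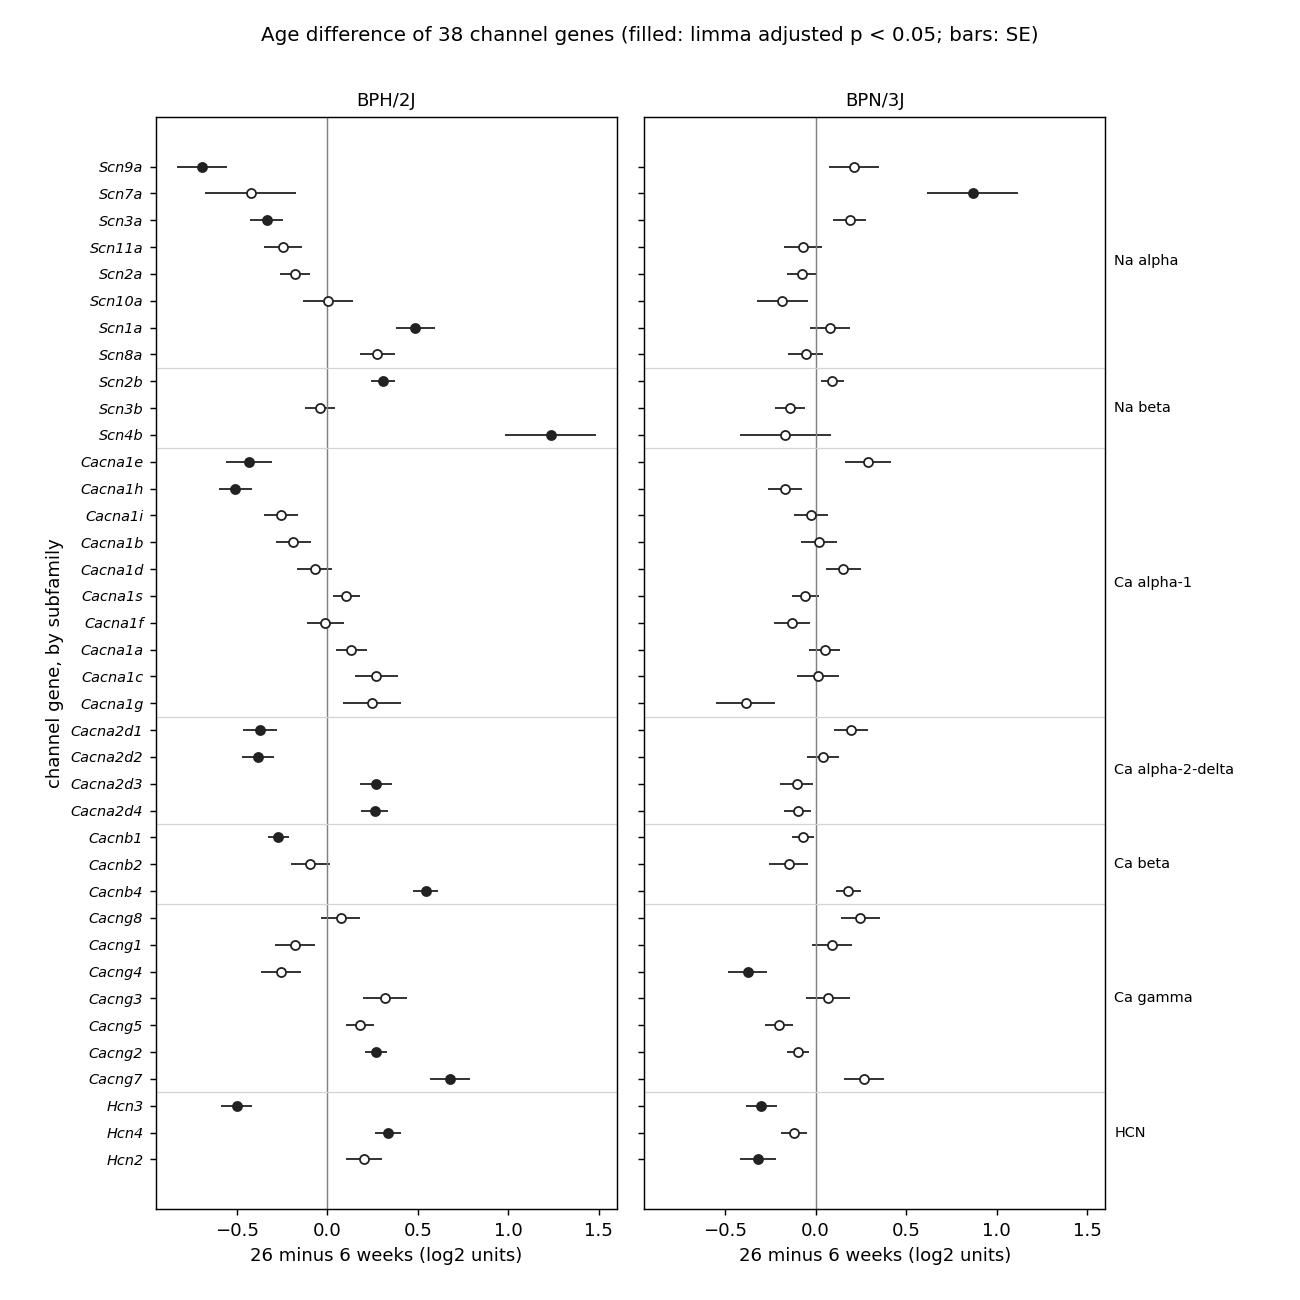
Difference of 26 minus 6 weeks in log2 units for each channel gene, by subfamily, in BPH/2J mice on the left and BPN/3J mice on the right; bars are SE and filled points have a limma adjusted p below 0.05. In BPH/2J mice 17 points are filled and in BPN/3J mice 4.

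The 26-week arrays themselves fell into 2 sets. Replicates 5 and 6 of both strains differed from replicates 1 to 4 for 35.1% of all genes and for 9 of the 38 channel genes, a split made after the data were seen and with no label behind it. Cacna1g, Cacng4 and Hcn3 were higher on replicates 5 and 6, by 0.49, 0.46 and 0.27, and Scn7a, Cacng7, Cacng3, Scn9a, Scn3a and Scn2b lower. Since these arrays belong to both strains, strain comparisons at 26 weeks hold both sets equally, and 0 of the 38 passed within replicates 1 to 4 (2.69% of all genes did), within replicates 5 and 6 (1.12%) or with the set as a term (4.42%). Replicates 5 and 6 hold only 2 arrays a strain, so the fit within them can show little. Age counts did change with the set, and the 26-week group then held 4 or 2 arrays. With all arrays 17 channel genes passed in BPH/2J mice (16.9% of all genes) and 4 in BPN/3J mice (12.3%). The parts of the set and of the number of arrays in these counts were not tested. In BPH/2J mice 22 channel genes passed with replicates 1 to 4 as the 26-week group, against 39.3% of all genes, and 5 passed with replicates 5 and 6, against 1.95%. In BPN/3J mice the counts were 9, against 33.6% of all genes, and 0, against 0.135%. The 5 that passed in BPH/2J mice with replicates 5 and 6 were Scn9a at -0.95, Cacna2d1 at -0.55 and Scn3a at -0.53, and Cacnb4 at 0.48 and Hcn4 at 0.43. The part of these sets in the age results of single genes was not tested further.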

How the data were processed

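Total RNA of 24 hypothalami was measured on Affymetrix Mouse Gene 1.0 ST arrays. The deposited log2 values came from RMA, per the submitters' processing notes, where limma is named as well. RMA subtracts background, gives the arrays the same distribution and summarises each probe set, so each difference is relative to an array's other genes. Tool versions, annotation and build were not given in the sources used here. With 0 missing values, the table held 34760 probe sets: 21640 had 1 gene symbol, 1321 several and 11799 none in the platform annotation. Precision is limited by the number of arrays. The background level of an array is taken as the median of its unnamed probe sets, 4.60 to 5.25, although some of these may detect transcripts. Sample titles gave the groups and replicate numbers, and the strain names are those of the sample labels.

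The model, in limma 3.58.1 and R 4.3.3, had a mean for each of 4 groups, 24 arrays and 20 residual degrees of freedom. Adjusted p-values are Benjamini-Hochberg values over 19937 genes within each of 5 contrasts, with a threshold of 0.05, and SE are those of the moderated fit. The code was tested on simulated data. Full values are given for channel genes that passed in a strain comparison and for the 3 with the smallest p in each age comparison, and channel partners are named where they passed in a strain comparison; others were named after their values were seen. Members, marker lists, partner list and named genes were chosen with earlier results of these data known. All 38 genes matched RefSeq (GRCm38.p6) by Entrez identifier. No 2 arrays of a group were duplicates, with mean absolute differences of at least 0.122. Correlations of same-numbered deviations between the strains were 0.165 to 0.491 at 26 weeks and -0.273 to 0.0779 at 6 weeks. Between the ages of BPH/2J mice, which were different mice, they were 0.00931 to 0.446. Replicates 3, 4 and 6 of 26-week BPH/2J mice each matched another BPN/3J number better. No label pairs the mice, and replicates 5 and 6 stood apart in both strains, so pairing was not shown. Alternatives were leaving out each array, a replicate block, fits of the groups compared alone, averaged probe sets, a filter on dim genes, median centring, moderation with a trend, and a thalamus covariate; the fits without 6-week BPH/2J replicate 2 plus covariate, the 26-week sets and the block within 26-week groups were chosen after seeing the data.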

Additional observations from a re-analysis of the deposited data

Results flagged for a closer look

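In 8 of 76 gene-by-group sets of 6 arrays, 1 array stood far from the other 5 by Dixon's ratio; about 1 in 20 such sets does so by chance, and the 76 cover the named genes in the 4 groups. In 6-week BPH/2J mice replicate 2 was the far array for Cacnb4, at 9.751 against 9.303 to 9.413 on the others, and for Hcn4, at 7.545 against 7.239 to 7.292. In 6-week BPN/3J mice Cacna1c read 8.062 on replicate 1 against 8.383 to 8.532, Cacnb4 read 9.95 on replicate 5 against 9.766 to 9.811, and Hcn2 read 9.346 on replicate 2 against 9.583 to 9.688. At 26 weeks Scn4b read 8.887 on replicate 3 of BPH/2J against 7.513 to 7.926, Cacna1g read 9.816 on replicate 6 of BPN/3J against 8.758 to 9.019, and Scn3a read 7.856 on replicate 5 of BPN/3J against 8.297 to 8.462.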

How the results depend on the processing

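Each of the 24 arrays was left out in turn, with the range of the share of all genes in brackets. Strain at 6 weeks gave 13 to 18 channel genes (5.19% to 9.84%) and strain at 26 weeks 0 (2.15% to 3.62%). The interaction gave 0 to 14 (0% to 2.49%). Age in BPH/2J gave 14 to 20 (10.7% to 24.3%) and age in BPN/3J mice 0 to 9 (5.19% to 21.2%). With the thalamus covariate 1 gene passed for strain at 6 weeks (0.858% of all genes) and 0 for age in BPH/2J (0.0401%). With 6-week BPH/2J replicate 2 left out as well, 3 passed for strain at 6 weeks (1.07%). For the interaction 1 passed with the replicate block and 1 with trend and robust moderation, whose shares of all genes are not given here. With the block within the 26-week groups 4 passed (0.697% of all genes), and 7 with a term for the 26-week sets (1.26%). With replicates 1 to 4 alone 1 passed (0.0953%). For age in BPH/2J 5 passed with 26-week replicates 5 and 6 alone (1.95% of all genes), and for age in BPN/3J 12 passed with the set term (36.7% of all genes), 9 with replicates 1 to 4 (33.6%) and 0 with replicates 5 and 6 (0.135%). With the covariate 3 differences changed sign, none passing: Cacna2d2 for strain at 6 weeks (-0.074, limma adjusted p = 0.992) and for age in BPH/2J (0.018, 0.961), and Cacna2d3 for age in BPH/2J (-0.074, 0.827). With replicate 2 also left out, Cacna1c (0.038, 0.982) and Cacna2d2 (-0.089, 0.882) did so for strain at 6 weeks. The replicate block over all groups gave 16 genes for strain at 6 weeks, 0 for strain at 26 weeks and 1 for the interaction. It gave 19 for age in BPH/2J and 5 for age in BPN/3J mice. Shares of all genes under this block are not given here, so these counts show nothing particular to channel genes. No label pairs the arrays, and the strain count at 26 weeks was 0 with and without this block. The files hold no detection calls. Scn11a lay at or below the background level on every array, and so did Scn10a and Cacna1f outside 26-week BPH/2J mice. In that group Scn10a did so on 4 of 6 arrays and Cacna1f on 5 of 6.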

Other observations

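Among channel partners, age differences in BPH/2J mice of 26 over 6 weeks passed for 6 of 29 genes, all higher (8.23% of all genes were higher): Pex5l by 0.77, Rims2 by 0.57, Fgf12 by 0.55, Camk2a by 0.45, Rims1 by 0.31 and Fgf13 by 0.27. Fgf12 and Fgf13 encode intracellular proteins that bind the tail of sodium channel alpha subunits, and the Rims proteins link calcium channels to vesicles. In BPN/3J mice Rims2 was higher by 0.33 and Unc79, a partner of the sodium leak channel, by 0.30, while Stx1a stood at -0.33 and Sptbn4, a spectrin of axon initial segments, at -0.26. Scnn1b and Scnn1g, subunits of the epithelial sodium channel, were at the background level in all 4 groups. Of 92 potassium channel genes, 1 was higher and 3 were lower in 26-week BPH/2J than in 26-week BPN/3J mice (1.32% and 1.34% of all genes); with age 15 were higher and 9 lower in BPH/2J mice (8.23% and 8.64%), and 4 higher and 8 lower in BPN/3J mice (4.60% and 7.66%).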
